A study of Homo sapiens with 6 samples.

Results

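The genes described here encode the HSP90 chaperones with their co-chaperones, the chaperones of the mitochondrion, 2 small heat shock proteins, the cytosolic chaperonin TRiC and its partner prefoldin. They were chosen by name, as every probe whose symbol in the platform table is exactly that of a listed gene, which gave 33 genes on 54 probes of the 20046 genes and 47322 probes in all. RNA came from the established human line KG1a, myeloid leukaemia cells of an early, CD34-positive kind, and was read on 6 Illumina bead arrays. Cells of 3 arrays were exposed to 2 µM of 7l, a code name with no structure given, for 24 h. Another 3 arrays held control cells, and the sources used here name neither their vehicle nor their time in culture. Nothing in the labels tells whether replicates came from separate cultures, so p-values measure the spread between these arrays, which may be technical.

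Chaperones bind proteins that are not yet folded, or that have lost their fold, and most release them in cycles driven by ATP. HSP90 acts late, on nearly folded clients such as kinases and steroid hormone receptors, and receives many of them from HSP70 through adaptor proteins. TRiC encloses actin, tubulin and other newly made proteins in a double ring, to which prefoldin delivers them, whereas HSPD1 and HSPE1 form the chamber and lid of the chaperonin inside mitochondria. Several of these genes are known to be induced by HSF1, the transcription factor of the heat shock response, which binds inverted repeats of the bases GAA called heat shock elements.

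The members whose sequence around an annotated start holds such repeats are shown first, because their values can then be read beside the letters that HSF1 is known to bind. RefSeq windows (GRCh38.p14) of 300 bases, from 250 before to 50 after an annotated gene start, were searched on both strands for the repeat of 3 units, GAANNTTCNNGAA, and for 2 adjoining units, GAANNTTC or TTCNNGAA, which the longer repeat contains. Of the members, 27 matched the table of windows used here, with 40 windows. CRYAB, CCT6A, PFDN2, GRPEL1, FKBP4 and ST13 are not in that table. The repeat of 3 units was found in 4 of the 40 windows, those of HSP90AA1, HSP90AB1, CHORDC1 and HSPD1, and in 0.49% of all 35116 windows. The 2 adjoining units were found in 12 of the 40 windows, from 11 genes, and in 13.5% of all windows. Those 4 windows are printed with that of HSPB1, which holds a single 2-unit match, and that of HSPA1B, an HSP70 gene that is no member but was called higher with 7l. Each runs 5′ to 3′ along the gene's strand, and capitals mark every 2-unit match. A match is a description of the letters and not a site of binding.
HSP90AA1, chr14:102086995-102087294, minus strand: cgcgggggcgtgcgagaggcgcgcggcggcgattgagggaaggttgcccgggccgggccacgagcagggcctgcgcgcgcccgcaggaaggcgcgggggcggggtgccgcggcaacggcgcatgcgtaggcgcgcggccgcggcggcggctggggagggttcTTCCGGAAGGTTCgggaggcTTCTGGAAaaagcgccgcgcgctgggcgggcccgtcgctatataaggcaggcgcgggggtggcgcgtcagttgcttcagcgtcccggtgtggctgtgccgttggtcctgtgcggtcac
HSP90AB1, chr6:44247693-44247992, plus strand: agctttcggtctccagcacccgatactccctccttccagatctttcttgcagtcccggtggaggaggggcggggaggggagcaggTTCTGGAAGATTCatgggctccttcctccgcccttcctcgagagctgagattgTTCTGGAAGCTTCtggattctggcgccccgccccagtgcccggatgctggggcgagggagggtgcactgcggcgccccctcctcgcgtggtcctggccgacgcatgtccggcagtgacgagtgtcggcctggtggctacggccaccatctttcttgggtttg
CHORDC1, chr11:90223000-90223299, minus strand: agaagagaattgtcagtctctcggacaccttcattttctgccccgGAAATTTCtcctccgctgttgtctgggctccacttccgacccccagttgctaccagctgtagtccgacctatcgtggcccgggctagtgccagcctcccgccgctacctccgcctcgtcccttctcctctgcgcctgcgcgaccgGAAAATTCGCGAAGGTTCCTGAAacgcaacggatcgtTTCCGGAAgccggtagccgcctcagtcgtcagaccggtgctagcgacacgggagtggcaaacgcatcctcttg
HSPD1, chr2:197499791-197500090, minus strand: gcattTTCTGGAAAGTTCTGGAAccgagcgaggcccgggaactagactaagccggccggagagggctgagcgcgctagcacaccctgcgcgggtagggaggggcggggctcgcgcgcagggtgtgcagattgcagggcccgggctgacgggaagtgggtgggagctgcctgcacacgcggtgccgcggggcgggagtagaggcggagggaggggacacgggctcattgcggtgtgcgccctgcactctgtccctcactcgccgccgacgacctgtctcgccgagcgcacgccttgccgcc
HSPB1, chr7:76302423-76302722, plus strand: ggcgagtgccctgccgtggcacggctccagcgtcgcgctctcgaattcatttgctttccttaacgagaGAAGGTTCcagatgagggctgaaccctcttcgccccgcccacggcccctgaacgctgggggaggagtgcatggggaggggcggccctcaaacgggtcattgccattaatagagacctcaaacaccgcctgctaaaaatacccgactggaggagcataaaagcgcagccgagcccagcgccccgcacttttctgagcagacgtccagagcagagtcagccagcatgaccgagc
HSPA1B, chr6:31827488-31827787, plus strand: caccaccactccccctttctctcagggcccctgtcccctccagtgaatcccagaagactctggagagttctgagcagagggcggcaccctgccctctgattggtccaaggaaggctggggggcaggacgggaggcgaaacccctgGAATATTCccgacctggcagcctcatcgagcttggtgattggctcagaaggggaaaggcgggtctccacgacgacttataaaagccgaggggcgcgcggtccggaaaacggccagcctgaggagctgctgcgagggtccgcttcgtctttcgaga

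With 7l, none of the 5 chaperone classes held a gene that passed the test, and most members lay within a narrow band around no change. Of 32 members tested with limma, 0 were higher and 0 lower at an adjusted p under 0.05, where 2.38% of the 12334 genes tested were called. The median log2 change of the members was 0.01, that of all genes tested was 0.01, and 16 members were positive and 16 negative. At an unadjusted p under 0.05 there were 3 of 32 members, CCT5 higher and TRAP1 and HSPB1 lower, against 20.5% of all genes. The 3 arrays of 7l lay beyond all 3 control arrays in 8 of 32 members, 4 in each direction, against 28.9% of all genes. Under a trended and robust prior, which lets each gene's spread borrow from genes of like brightness, 4 of 32 members passed, against 13.8% of all genes. They were STIP1, called higher as were 7.21% of all genes, and TRAP1, HSPB1 and CCT6A, called lower as were 6.59% of all genes. These counts of members were near or under the shares over the whole table.

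The precision of the arrays limits how much change could have been missed. For 31 of the 32 members the 95% interval of the log2 change lay within 1 in either direction, that is, a 2-fold change, and for 26 it lay within 0.5. The same held for 68.7% and 40.7% of all genes tested. PFDN4, the dimmest member tested, was the exception at a 2-fold change. These intervals belong to the brightest probe of each gene, and some other probes had wider ones. For the dimmest probe of HSPD1 the interval was -0.17 to 1.79 in the fit over probes. The members were brighter than most genes, with a median of their mean log2 intensities of 8.82 against 6.06 over all genes tested, and their SD within groups was smaller, at a median of 0.11 against 0.17. In bulk samples less RNA per cell and fewer cells that express a gene cannot be told apart.

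**Figure D1:**
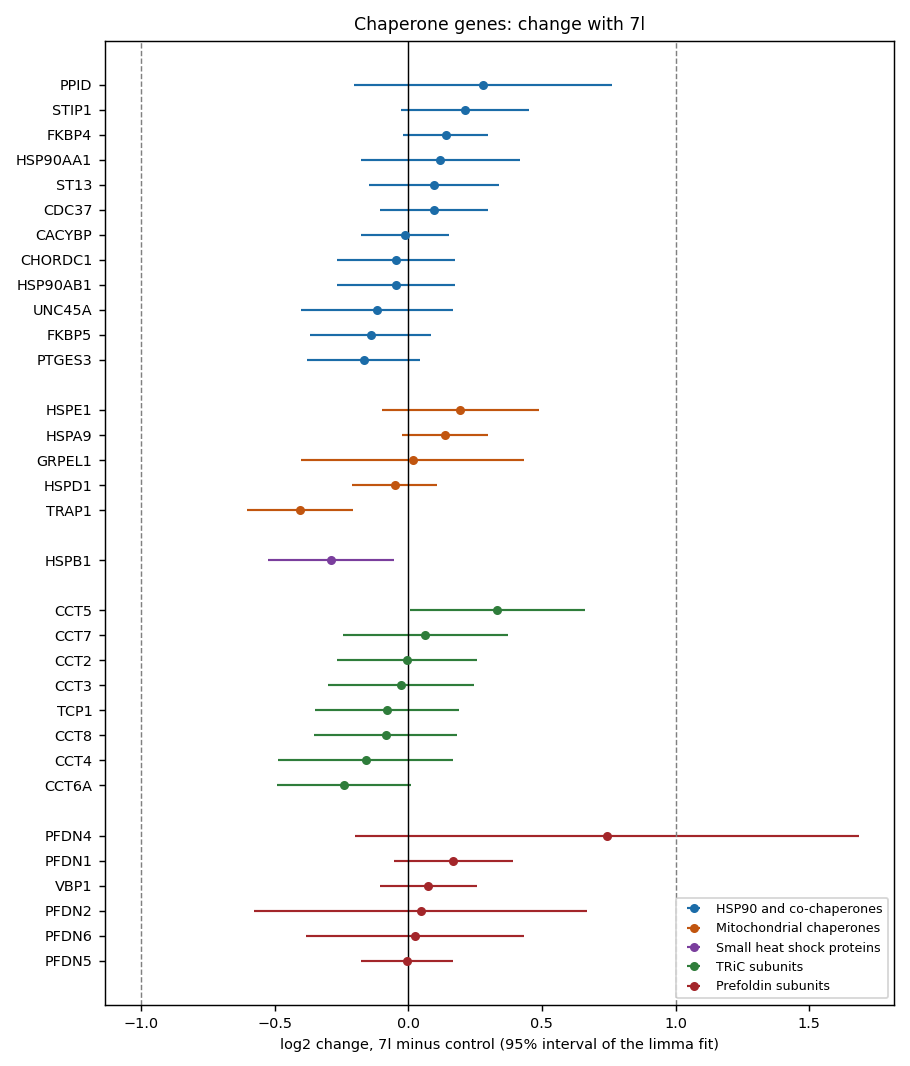
Log2 change of each tested member, 7l minus control, with the 95% interval of the limma fit, sorted within its class; dashed lines mark a 2-fold change either way. Of the 32 intervals 31 stay inside the dashed lines and that of PFDN4 does not.

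Values of the whole series give the setting. The median intensity over the arrays was 4.95, and the share of probes at the floor of 1 was 32.7% to 34.2%. A level of log2 2.46, the 95th percentile of 561 probes for olfactory and taste receptors and keratin-associated proteins, served as background. All 8 listed markers of KG1a and of immature blood cells lay above it on all 6 arrays. Their summed intensity was 5702 to 6001 on 7l arrays and 6762 to 6888 on control arrays. The markers did not move together: 4 were positive and 4 negative, with a median log2 change of -0.01 and a highest of 0.15. CD34, the progenitor antigen, measured -0.23 (adjusted p = 0.185), and MYB, a transcription factor of blood progenitors, was called lower (log2 -0.50 ± 0.08, SE; limma adjusted p = 0.0442), a call lost without any 1 of the 6 arrays. Of 16 markers of other tissues 5 lay above background on every array and 5 on none, with CDH1 and CDH5, the cadherins of epithelium and endothelium, at the floor throughout. Their summed intensity was 186 to 207 on 7l arrays and 241 to 252 on control arrays, and its largest part was PECAM1 (log2 -0.66, limma adjusted p = 0.0731), which blood cells also express. VWF, of endothelium and platelets, measured -0.21. The part of either shift in the results was not tested.

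Among the HSP90 proteins and their partners, 0 of 12 tested genes passed, and the median log2 change was 0.04, with 6 positive and 6 negative. The changes ran from -0.17 for PTGES3 to 0.28 for PPID. HSP90AA1, the inducible cytosolic HSP90 whose window above carries the 3-unit repeat, measured 12.95, 12.78 and 12.95 (log2 intensity, as are all levels below) on 7l arrays, against 12.71, 12.64 and 12.97 on control arrays. The groups overlapped, since the third control array was the highest of all 6. Its change was 0.12 ± 0.12 (SE), with a 95% interval of -0.18 to 0.42 and a limma adjusted p of 0.622. HSP90AB1, the constitutive cytosolic HSP90, which has such repeats too, had 10.58, 10.47 and 10.55 on 7l arrays and 10.51, 10.71 and 10.51 on control arrays. These overlapped, with the second control array the highest and the second 7l array the lowest, and the change was -0.05 with an interval of -0.27 to 0.18.

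The adaptors that hand clients to HSP90 came next. STIP1, which joins HSP70 to HSP90, had 10.23, 9.95 and 10.08 on 7l arrays, against 9.85, 9.93 and 9.85 on control arrays. The lowest 7l array lay just above the highest control array. STIP1 was 1.16-fold higher (log2 0.21 ± 0.09, limma adjusted p = 0.292; adjusted p = 0.0459 with the trended and robust prior). ST13, which binds HSP70 in the same relay, measured 0.10, and CDC37, which brings kinases to HSP90, also 0.10, with overlapping groups in both. UNC45A, a co-chaperone of myosin, measured -0.12, and its 3 tested probes did not share a sign.

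The immunophilins are co-chaperones of steroid receptor complexes, in which they bind HSP90. FKBP4 had 9.74, 9.75 and 9.82 on 7l arrays and 9.62, 9.64 and 9.63 on control arrays. Its groups did not overlap, but the step between them was small, at 0.14 ± 0.06 (limma adjusted p = 0.294). FKBP5, which is known to be induced by glucocorticoids and restrains their receptor, had 8.23, 8.07 and 8.26 on 7l arrays, against 8.38, 8.23 and 8.37 on control arrays. The highest 7l array lay above the lowest control array, and the change was -0.14 (interval -0.37 to 0.09, adjusted p = 0.442). PPID, a cyclophilin, had 5.04, 4.97 and 4.80 on 7l arrays and 4.68, 4.98 and 4.31 on control arrays. These overlapped, the control arrays being the more spread, and PPID measured 0.28 ± 0.19. Of 9 listed targets of the glucocorticoid receptor 7 were tested and 0 passed. Their median was 0.39, but 4 were positive and 3 negative, and only 2 of the 7 intervals lay within 0.5. DUSP1, a phosphatase of MAP kinases, measured 0.39 ± 0.08 (adjusted p = 0.0729), and NFKBIA, which retains NF-kappaB in the cytosol, measured -0.34 ± 0.11 (adjusted p = 0.181). NR3C1, the receptor's own gene, was dim, and measured -0.42 ± 0.50.

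PTGES3, the co-chaperone p23 that stabilises the closed form of HSP90, had 7.74, 7.76 and 7.57 on 7l arrays and 7.79, 7.88 and 7.90 on control arrays. Every 7l array lay under every control array, the nearest of them closely, and the change was -0.17 ± 0.08 (limma adjusted p = 0.341). CHORDC1 encodes an HSP90-binding protein, and its window holds 3 overlapping matches of the 3-unit repeat within a single run. It measured -0.05 (interval -0.27 to 0.18) on its brightest probe and -0.17 on the other. CACYBP, which binds HSP90 co-chaperones and a ubiquitin ligase, measured -0.01 with an interval of -0.18 to 0.15.

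**Figure D2:**
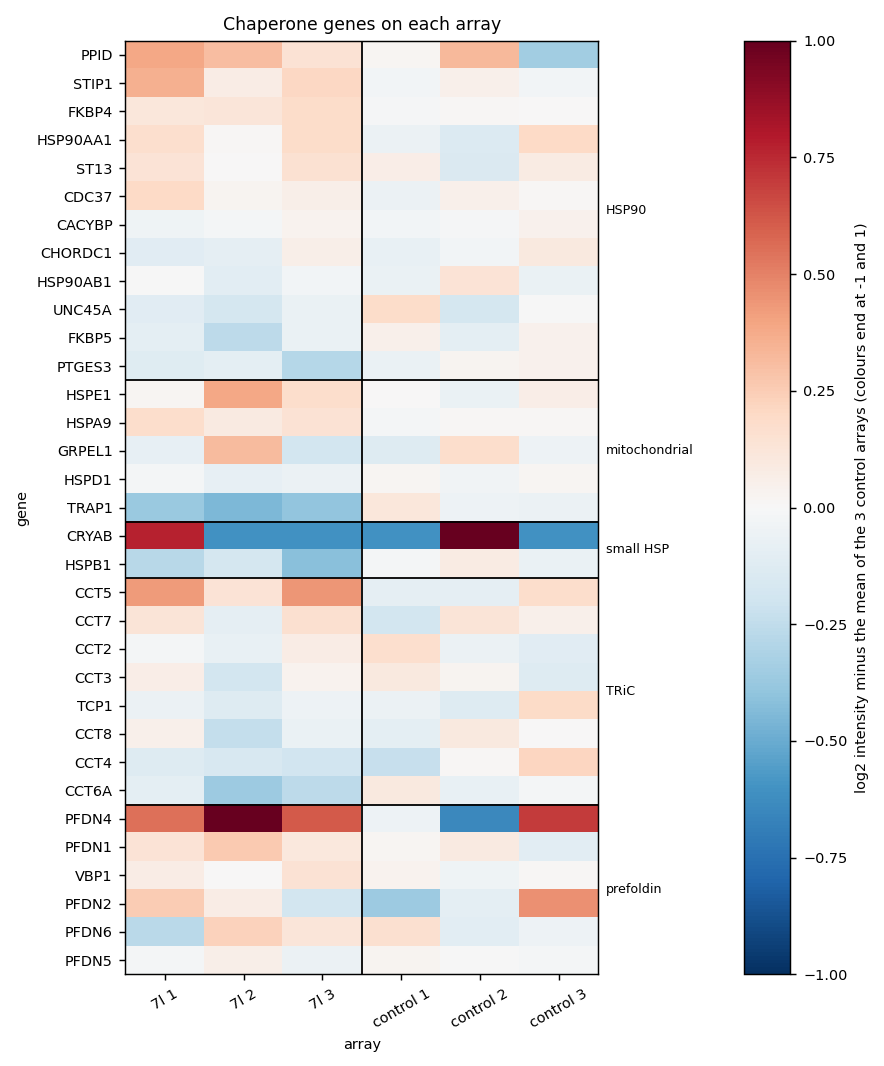
Log2 intensity of each member on each array minus the mean of its 3 control arrays, 7l arrays at the left, in colour, with members grouped by class. TRAP1 and HSPB1 are lower on all 3 arrays of 7l, CRYAB and PFDN4 are dim genes whose arrays scatter, and most other rows are pale.

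Of the 5 mitochondrial chaperones 0 passed, and their median was 0.02, with 3 positive and 2 negative. TRAP1, the HSP90 of mitochondria, had the smallest p of all members. It measured 6.94, 6.87 and 6.93 on 7l arrays, against 7.43, 7.27 and 7.26 on control arrays. Every 7l array lay clearly under every control array, and means were 6.91 ± 0.04 with 7l and 7.32 ± 0.10 in control cells (SD, n = 3 each). That is 1.32-fold lower, or -0.40 ± 0.08 (SE, interval -0.60 to -0.21), with a limma adjusted p of 0.0727 over all genes. Other settings moved TRAP1 across the threshold: its adjusted p was 0.00398 with the trended and robust prior and 0.0458 on the log2(intensity + 16) scale, and 0.151 to 0.193 without any 1 array. TRAP1 has a single probe in the table.

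HSPD1 and HSPE1, chamber and lid of the mitochondrial chaperonin, lie head to head on chromosome 2, with annotated starts 105 bases apart and windows that share 204 bases, which hold no such repeat. The HSPD1 window printed above belongs to a further start, 539 bases from that of HSPE1. Its repeats begin at offset -245 from that further start. They therefore lie between it and the HSPE1 start, just outside the HSPE1 window. HSPD1 had 12.12, 12.06 and 12.09 on 7l arrays and 12.16, 12.11 and 12.16 on control arrays. The highest 7l array exceeded the lowest control array, and the change was -0.05, with an interval of -0.21 to 0.11 (limma adjusted p = 0.700). HSPE1 had 10.67, 11.03 and 10.82 on 7l arrays, against 10.65, 10.57 and 10.71 on control arrays. Only the lowest 7l array fell inside the control range, and the change was 0.20 ± 0.12 (interval -0.10 to 0.49, limma adjusted p = 0.415). Whether the changes of HSPD1 and HSPE1 differed was not tested.

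HSPA9, the mitochondrial HSP70 that also pulls proteins through the inner membrane, had 9.80, 9.72 and 9.77 on 7l arrays and 9.61, 9.64 and 9.64 on control arrays. These groups did not overlap, and the difference was 1.10-fold (log2 0.14 ± 0.06, limma adjusted p = 0.306). GRPEL1, the nucleotide exchange factor of HSPA9, measured 0.02 ± 0.16 with an interval of -0.40 to 0.43. Of 15 other mitochondrial chaperones and proteases 14 were tested and 0 passed, with a median of 0.09. The smallest p-values there belonged to SPG7, a subunit of an inner membrane protease, at -0.23 ± 0.07 (adjusted p = 0.175) and HTRA2, an intermembrane protease, at 0.25 ± 0.09 (adjusted p = 0.217).

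The small heat shock proteins hold unfolded proteins without using ATP. HSPB1 had 8.40, 8.51 and 8.26 on 7l arrays, against 8.66, 8.77 and 8.62 on control arrays. Each 7l array was under each control array, and the 7l mean was 1.22-fold lower (8.39 ± 0.12 with 7l and 8.68 ± 0.08 in control cells, SD, n = 3 each). Its log2 change of -0.29 ± 0.09 (SE, interval -0.53 to -0.05) did not pass in the default fit (limma adjusted p = 0.179) and passed with the trended and robust prior (adjusted p = 0.0120). CRYAB, alpha B crystallin, was not tested: it had 1.37, 0.00 and 0.00 on 7l arrays and 0.00, 1.82 and 0.00 on control arrays. No array was above background, so CRYAB has no order between the groups. Among 8 other small heat shock protein genes 7 were in the table, and the 1 tested, HSPB3, which is dim, measured 1.09 ± 0.60 (adjusted p = 0.385).

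**Figure D3:**
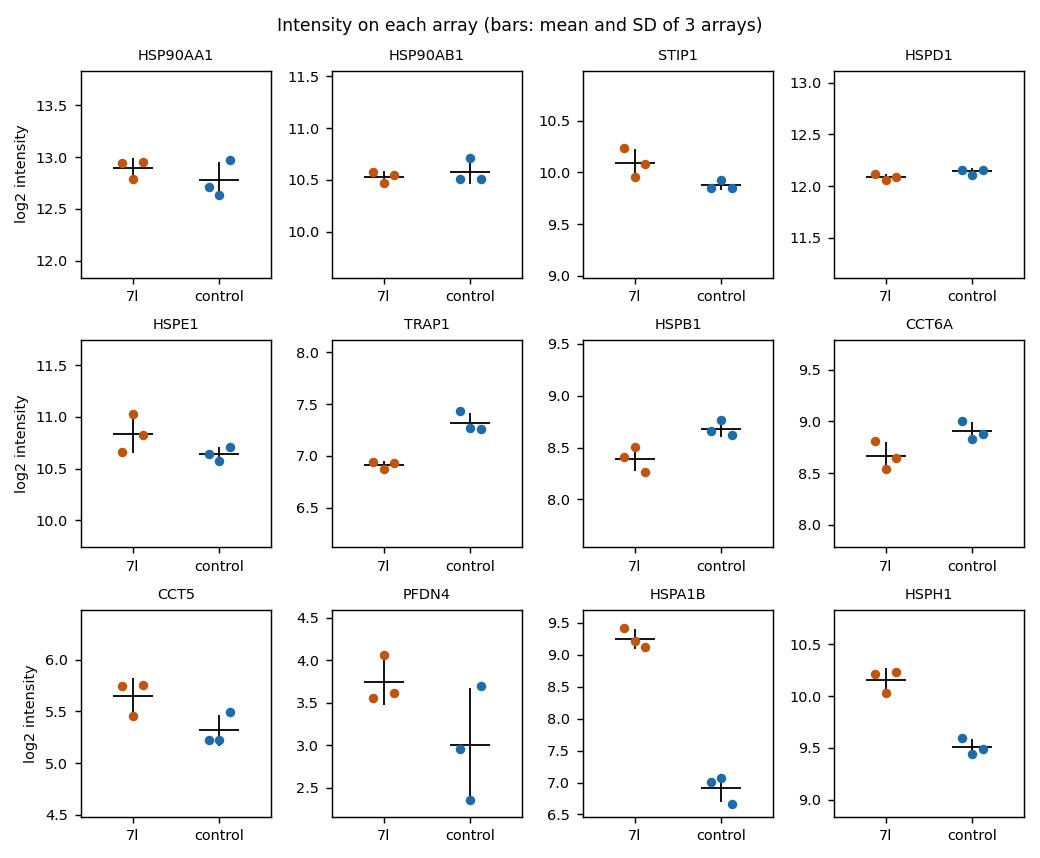
Log2 intensity on each array for 10 members and, last, the HSP70 system genes HSPA1B and HSPH1, 7l at the left and control at the right, with bars for the mean and SD of 3 arrays; each panel has its own scale, of at least 2 units. TRAP1 and HSPB1 are lower with 7l by under 0.5, whereas HSPA1B is higher by 2.33.

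Among the 8 subunits of TRiC 0 passed, 2 were positive and 6 negative, and the median was -0.05. On the second 7l array 7 of the 8 lay under their control mean, whereas on the other two arrays of 7l 4 of 8 did. CCT5 was the highest, with 5.74, 5.45 and 5.75 on 7l arrays and 5.23, 5.23 and 5.49 on control arrays. The second 7l array lay under the third control array, and CCT5 measured 0.33 ± 0.13 (interval 0.0049 to 0.66, limma adjusted p = 0.239). TCP1, CCT2, CCT3, CCT4, CCT7 and CCT8 ran from -0.16 for CCT4 to 0.06 for CCT7, with overlapping groups in each of these 6.

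CCT6A was the lowest subunit, and its 2 probes went opposite ways. The brighter had 8.81, 8.54 and 8.64 on 7l arrays and 8.999, 8.83 and 8.88 on control arrays, so every 7l array was lower, the first by little. The other probe, which the platform table assigns to a different RefSeq transcript, had 8.52, 8.40 and 8.49 on 7l arrays, against 8.24, 8.29 and 8.32 on control arrays, so every 7l array was higher. Their changes were -0.24 ± 0.11 and 0.19 ± 0.08 in the fit over 23661 probes, and neither passed (limma adjusted p = 0.369 and adjusted p = 0.352). The difference between both probes was -0.43 ± 0.12 between 7l and control, in a limma fit of the 2 brightest probes of each of 3308 genes that was added after these values were seen. It did not pass (adjusted p = 0.489), and 0% of those 3308 pairs were called, while 7.95% had an unadjusted p under 0.05.

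Over all probes, 51 of the 54 were bright enough to test, and 0 passed in the probe fit, where 0.566% of all probes were called. The groups did not overlap in 6 probes with higher and 7 with lower values on 7l arrays, out of 51, against 24.9% of all probes. With the trended and robust prior 4 of the 51 passed, against 9.4% of all probes: the second probe of HSP90AA1, which was higher, and those of TRAP1 and HSPB1 and the second of TCP1, which were lower. STIP1 and CCT6A, called under that prior in the fit over genes, did not pass in the fit over probes (adjusted p = 0.0673 and adjusted p = 0.0627). Of the 12 genes with more than 1 tested probe, 6 had all probes of the same sign. HSP90AA1 was among these: its second probe had 11.98, 11.88 and 11.99 on 7l arrays and 11.79, 11.71 and 11.73 on control arrays, which do not overlap, for a change of 0.21 ± 0.08 (limma adjusted p = 0.307 over all probes; adjusted p = 0.0213 with the trended and robust prior). HSPD1 was not, since the third of its 4 probes by brightness measured -0.37 ± 0.11 (adjusted p = 0.212), with every 7l array lower, and its dimmest 0.81 ± 0.39. For TCP1 the 3 probes were all negative, at -0.08, -0.27 and -0.14. The groups of the second did not overlap (limma adjusted p = 0.268; adjusted p = 0.0310 with the trended and robust prior). The 2 brightest probes of a gene differed between 7l and control without overlap for CCT6A and CCT7, 2 of 12 pairs, against 15.1% of all pairs.

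**Figure D4:**
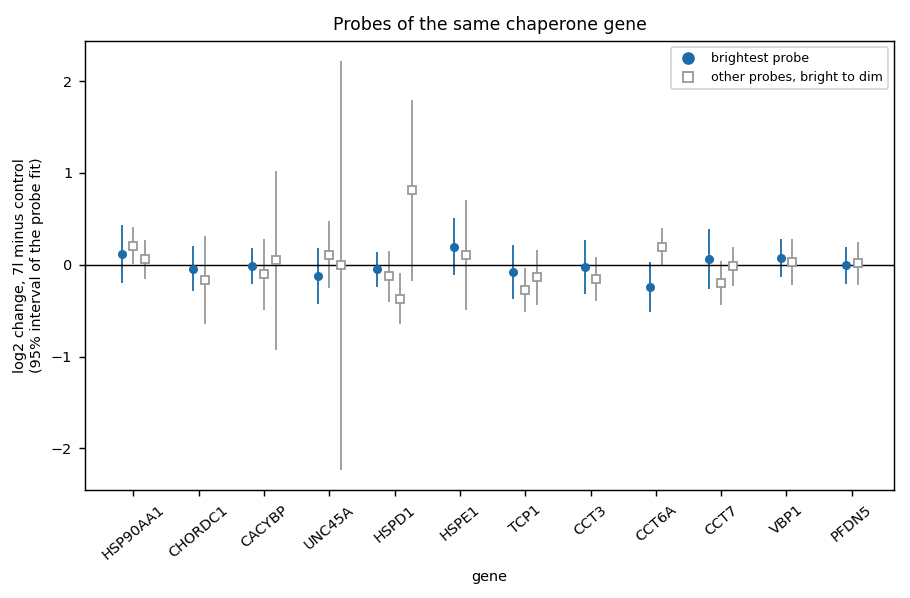
Log2 change, 7l minus control, of every tested probe of the 12 genes with more than 1, with the 95% interval of the probe fit; filled circles are the brightest probe, open squares the others from bright to dim. The intervals of dim probes are wide, and the 2 CCT6A probes lie on opposite sides of 0.

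Of the 6 prefoldin subunits 0 passed, 5 were positive and 1 negative, and the median was 0.06. PFDN4 had 3.56, 4.07 and 3.62 on 7l arrays, against 2.96, 2.36 and 3.70 on control arrays. The third control array lay above 2 of the 7l arrays and the second was under background, and PFDN4 measured 0.74 ± 0.37 with an interval of -0.20 to 1.68 (limma adjusted p = 0.341). PFDN1 had 7.82, 7.95 and 7.78 on 7l arrays and 7.70, 7.77 and 7.57 on control arrays. Its groups nearly touched but did not overlap, and it was 1.12-fold higher (log2 0.17 ± 0.09, adjusted p = 0.357). PFDN5, the lowest, had 9.70, 9.79 and 9.67 on 7l arrays and 9.75, 9.72 and 9.70 on control arrays, with the control arrays inside the 7l range, at -0.01 (interval -0.18 to 0.17). PFDN2, PFDN6 and VBP1, the last a subunit named for its binding to the VHL protein, measured 0.05, 0.03 and 0.07, with overlapping groups in each.

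Lists of other genes around these machines were tested in the same fit. Of 24 listed partners of HSP90 21 were tested and 0 passed, with a median of 0.06. FNIP1, which slows the ATPase of HSP90, measured 0.47 ± 0.10 (limma adjusted p = 0.0820; 0.000841 with the trended and robust prior). PPP5C, the phosphatase of HSP90 complexes, had 0.00, 2.13 and 0.00 on 7l arrays, against 2.84, 3.26 and 3.17 on control arrays. No 7l array was above background, and PPP5C was at least 1.55-fold lower (limma adjusted p = 0.131). It exceeded the level for testing (log2 1.76) only through its control arrays, with means of 0.71 on 7l and 3.09 on control arrays. Its p-values therefore rest on that filter. PPP5C passed without the second 7l array (adjusted p = 0.0260) and on the log2(intensity + 16) scale (adjusted p = 0.0447). It did not pass without either of the other 7l arrays (adjusted p = 0.279 in both). Without any 1 control array it fell under the level for testing. Of 11 listed prefoldin-like proteins and TRiC cofactors 8 were tested and 0 passed, with CCT6B, the testis form of CCT6A, at 0.80 ± 0.17 (adjusted p = 0.0859) and PDCL, a phosducin-like cofactor of TRiC, at 0.54 ± 0.14 (adjusted p = 0.125). Among the folding clients of TRiC, 0 of 10 tested actin and tubulin genes passed, with a median of 0.06. TUBB measured -0.24 ± 0.07 (adjusted p = 0.152) and TUBB2A 0.53 ± 0.19 (adjusted p = 0.208).

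The HSP70 system, which feeds clients to HSP90 and shares HSF1 as a regulator, is set beside these classes. Of its 22 tested genes 4 rose and 0 fell, with a median of 0.29, where 1.22% of all genes were called higher and 1.16% lower. The 22 and their median include HSPA6, which exceeded the level for testing only through its 7l arrays. Its means were 3.45 on 7l and 0.68 on control arrays, the latter under background. HSPA6 was at least 1.99-fold higher and did not pass (limma adjusted p = 0.0949), and this p-value rests on that filter. HSPA1B had 9.42, 9.21 and 9.12 on 7l arrays, against 7.01, 7.08 and 6.66 on control arrays, far apart, and its change was 2.33 ± 0.15 (limma adjusted p = 0.0121; adjusted p = 0.0468 to 0.0747 without any 1 array). Its interval of 1.96 to 2.71 lies above that of every tested member. HSPA1B shares nearly all its sequence with HSPA1A, whose own probe was below background on every array, so the signal cannot be given to either gene with certainty. The others that rose were the co-chaperone genes BAG3 (log2 1.10 ± 0.12), DNAJB1 (0.74 ± 0.10) and HSPH1 (0.65 ± 0.09), each with a limma adjusted p of 0.0257 to 0.0383. Each lost its call without any 1 array (limma adjusted p = 0.0725 to 0.122, 0.116 to 0.146 and 0.0837 to 0.139). HSPA8, the constitutive HSP70, measured 0.37 ± 0.08 and did not pass (adjusted p = 0.0820). With 1 array left out, 2 genes of all these related lists were called higher without the third control array and 0 without any other array. Whether the HSP90 or TRiC genes differed from the HSP70 genes as classes was not tested, and only their values are set side by side.

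**Figure D5:**
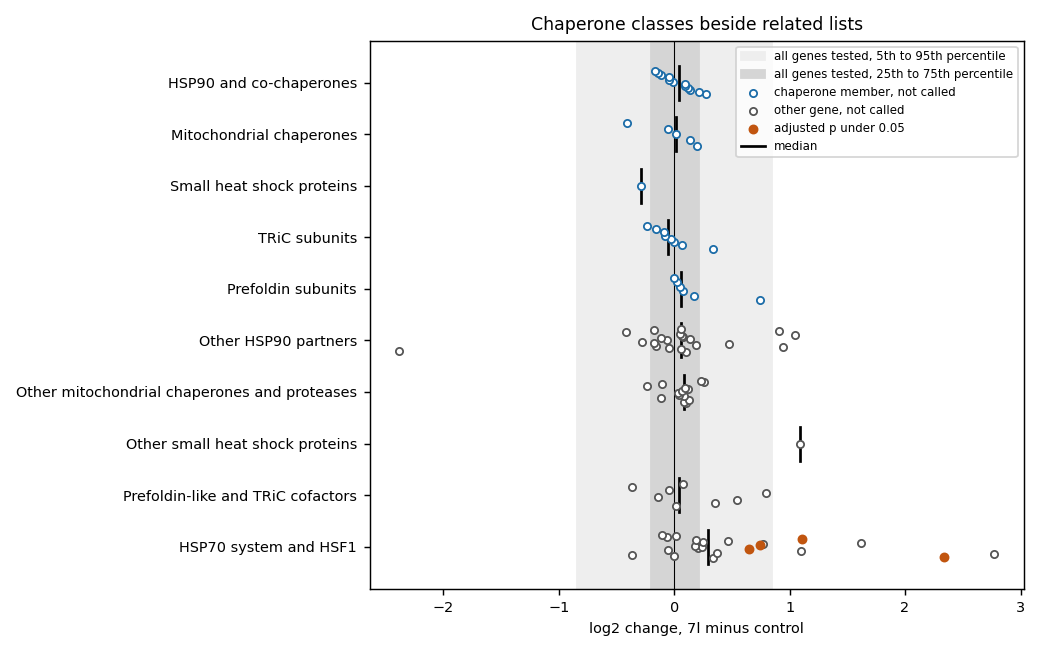
Log2 change, 7l minus control, of the tested genes of each chaperone class and related list, 1 point a gene, with the median as a bar and grey bands for the 25th to 75th and 5th to 95th percentiles of all genes tested. All 32 members are open points, none called, while 4 genes of the HSP70 system are filled. PPP5C and HSPA6 are drawn at their computed change, although a group of each lay under background and only a bound holds.

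Read by the letters of their windows, the 4 members with a 3-unit repeat measured 0.12 (HSP90AA1), -0.05 (HSP90AB1), -0.05 (CHORDC1) and -0.05 (HSPD1), none of them called and all with overlapping groups on their brightest probe. Dimmer probes of HSP90AA1 (0.21) and HSPD1 (-0.37) had groups that did not overlap, and that of HSP90AA1 passed under the trended and robust prior. The platform table assigns this HSP90AA1 probe to a different RefSeq transcript from the brightest. HSP90AA1, HSP90AB1 and HSPD1 each have further annotated starts, whose windows hold no match, and probes were not matched to starts. The 7 members with 2-unit matches alone, 1 in a window, measured 0.21 (STIP1), 0.14 (HSPA9), -0.29 (HSPB1), -0.08 (TCP1), -0.01 (CCT2), -0.16 (CCT4) and 0.03 (PFDN6). The HSPA1B window also has 1 such match. Only exact units were searched for, so units with a changed base were not counted in any window. The signal of the HSPA1B probe, which may come from HSPA1A as well, was 5.04-fold higher. TRAP1, the member with the smallest p, had no match in its window. HSPE1 had no match in its own window, but the HSPD1 repeats also lie before its start, and HSPE1 measured 0.20. These are 300-base windows at annotated starts, and sequence outside them was not searched.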

How the data were processed

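Biotinylated cRNA was hybridised to 6 Illumina arrays, per the labels' protocols, and the authors deposited linear probe intensity in a single table. Which software, background correction and normalization produced it is not stated in the labels. Deposited intensity lies between 1 and 10984. After sorting, all arrays hold the same value (tolerance 0.0001) at 97.8% of ranks, so a shift of the whole array could not be seen. Column names gave each array's sample, and titles its group. Probes were named through the platform table (30113 with 1 symbol, 8 with several, 17201 unnamed), and symbols were checked against RefSeq (0 changed).

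The log2 of the deposited values was taken, with 1 as the floor. The probe with the highest mean stood for its gene, which was tested where that mean was above log2 1.76, the median over probes. Groups were compared in limma 3.58.1 under R 4.3.3 by lmFit and eBayes, with no term but the group (4 residual and 1.24 prior degrees of freedom). The p-values are two-sided with Benjamini-Hochberg adjustment over all genes, and the fit was repeated over all probes. It was tested on simulated data. Called means an adjusted p under 0.05, changes are 7l minus control, and intervals are 95%. A group with all arrays at or under background (log2 2.46) has only a bound, taken against that level. No coordinates come from the array files, and promoter windows and gene starts are RefSeq's (GRCh38.p14). The members and lists were chosen with earlier results of these data known. Per-array values are given for the 10 members with the smallest p, the highest and lowest of each class and 8 set genes (HSP90AA1, HSP90AB1, HSPD1, HSPE1, HSPA9, HSPB1, CRYAB and FKBP5). Of other lists, called genes and the 2 with the smallest p are named, beside HSPA1B, HSPA8, HSPH1, DNAJB1, BAG3 and NR3C1. Other genes, and the second probes, were named after their values were seen. Figures used Python 3.11.15, pandas 2.3.3 and matplotlib 3.10.9. The alternatives were 2 normalizations, 2 filters, averaged probes, a trended and robust prior, array weights, log2(intensity + 16), a replicate block and leaving out each array.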

Additional observations from a re-analysis of the deposited data

How the results depend on the processing

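In the default fit and under both normalizations, both other filters, averaged probes, array weights and the replicate block, 0 members were called, as without any 1 array (0 to 0 higher and 0 to 0 lower). Quantile normalization could change little, because the arrays already held the same value at 97.8% of ranks. With the trended and robust prior 1 member was called higher (STIP1) and 3 lower (TRAP1, HSPB1 and CCT6A). In the fit over probes that prior called 1 higher (HSP90AA1) and 3 lower (TRAP1, HSPB1 and TCP1), and with log2(intensity + 16) 1 member was called lower (TRAP1). The member with the smallest adjusted p was TRAP1 in all 16 fits.

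Counts over all genes moved far more. Higher and lower calls were 150 and 143 by default, 232 higher without a filter, 251 and 229 with the filter at background, 889 and 813 with the trended and robust prior and 385 and 342 with log2(intensity + 16). Without any 1 array they were 6 to 20 and 0 to 10. Genes of the related lists called higher and lower were 4 and 1 by default, 16 and 7 with the trended and robust prior, 10 and 3 with log2(intensity + 16), 0 lower with averaged probes, and 0 to 2 and 0 to 1 without any 1 array. Among the named genes outside the members, leaving HSPA6 aside, some passed only in other settings. HSPA8, FNIP1, SPG7, PDCL, TUBB, TUBB2A, NFKBIA, CD34 and PECAM1 passed under the trended and robust prior and not by default. With log2(intensity + 16), HSPA8, FNIP1, PPP5C and PECAM1 did so. The causes were not tested.

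The replicate numbers did not pair the arrays: deviations of same-numbered arrays from their group means correlated at -0.0234 to 0.00432 over the genes tested, and 0 of 3 arrays matched best with its own number. With the replicate number as a block, 0 genes were called higher and 0 lower, and 0 and 0 of the related lists.

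Signs turned for members near 0. With averaged probes HSPD1 measured 0.066, CCT7 -0.051 and PFDN5 0.0047, and the non-member NR3C1 0.0012, and with array weights PFDN6 measured -0.017. Over the fits without 1 array HSP90AB1 ran from -0.080 to 0.021, CHORDC1 from -0.099 to 0.0022, CACYBP from -0.034 to 0.0088, GRPEL1 from -0.13 to 0.12, TCP1 from -0.14 to 0.017 and CCT2 from -0.060 to 0.081. CCT3 ran from -0.091 to 0.051, CCT7 from -0.026 to 0.14, PFDN2 from -0.13 to 0.28, PFDN5 from -0.039 to 0.020, PFDN6 from -0.074 to 0.18 and NR3C1 from -0.86 to 0.066. The CCT6A probe difference kept its sign and stayed uncalled under 8 other settings and 6 fits without 1 array. Dim genes such as PFDN4 and CRYAB are limited by signal near background.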
